A study of Mus musculus with 18 samples.

Results

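Trp53, the gene of the transcription factor p53, and 9 genes that p53 is known to activate directly (Mdm2, Cdkn1a, Ccng1, Trp53inp1, Bbc3, Bax, Pmaip1, Sesn2 and Phlda3) were followed through chemical reprogramming of mouse fibroblasts. They were taken by name, as 10 of the 55401 genes in the expression tables, and each was matched to 1 Ensembl identifier. RNA was sequenced in 18 libraries of 9 groups, 2 libraries each: the starting mouse embryonic fibroblasts (D0), the cultures after 2, 4, 6, 8, 10 and 12 days in reprogramming medium (D2 to D12), a pluripotent line obtained by reprogramming (riPSC), and the R1 line of mouse embryonic stem cells (mESC). The fibroblasts, the reprogramming cultures and the riPSC were of strain 129XOG2 and came from E13.5 embryos, and the fibroblasts put into reprogramming were OG2 cells of passages 1-3. The R1 mESC came from a mouse blastocyst and were of another strain label, so riPSC and mESC also differed in origin. D0 cells were labelled MEF, D2 to D12 reprogramming intermediates, and what the reprogramming medium contained is not given in the sources used here. Both stem cell groups grew on feeder cells in medium with LIF, CHIR99021 and PD0325901, agents the D0 cells did not receive, and nothing said whether the riPSC were 1 clone. Nothing in the labels said that the 2 libraries of a group came from separate cultures, so p-values measured only the spread between these libraries, which may be technical.

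p53 is kept low in unstressed cells because Mdm2, itself a p53 target, marks it for degradation. When DNA damage, oncogene activity or other stress blocks that step, p53 protein accumulates and switches on genes for cell cycle arrest (Cdkn1a, which encodes p21), apoptosis (Bax, Bbc3 encoding PUMA, Pmaip1 encoding NOXA) and metabolic or signalling restraint (Sesn2, Phlda3). Because p53 is controlled mainly as a protein, the level of Trp53 RNA is no measure of its activity. In mouse fibroblasts p53 and p21 are known as barriers to reprogramming. These are textbook facts and not results of these libraries.

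Of these genes, 8 had entries in the RefSeq table of promoter windows (GRCm38.p6, 300 bases, from 250 before to 50 after an annotated start), with 11 windows among them. p53 binds as a tetramer to a pair of decamers, and each window was searched on both strands for the p53 consensus half-site decamer and for adjacent decamer pairs with up to 2 mismatches in 20 bases. An exact half-site was present in 5 of the 11 windows, 1 window each of 5 genes (Trp53, Mdm2, Cdkn1a, Ccng1 and Bax), against 8.36% of all 32851 windows. An adjacent pair was present in 1 window of Cdkn1a and the window of Ccng1, each with 1 mismatch, against 0.798% of all windows. These upstream stretches are shown because Cdkn1a, Ccng1 and Mdm2 are the genes with such a match that rose from D4 to D6. Match and rise did not go together in all genes. Trp53 (0.49) and Bax (-0.10) had a half-site and were not called in that step, and Bbc3 and Sesn2 rose without one in their windows. Each runs 5′ to 3′ from 250 to 31 bases before the annotated start. Capitals mark the decamer pair in Cdkn1a and Ccng1 and the single half-site in Mdm2. A further exact half-site of Cdkn1a (GGACTAGCTT), just upstream of the pair, is left in lower case.
Cdkn1a, chr17:29090729-29090948, plus strand: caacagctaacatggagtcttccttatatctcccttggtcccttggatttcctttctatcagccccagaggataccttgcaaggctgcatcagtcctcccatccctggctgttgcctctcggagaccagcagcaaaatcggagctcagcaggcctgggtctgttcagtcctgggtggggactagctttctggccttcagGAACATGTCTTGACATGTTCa
Ccng1, chr11:40755317-40755536, minus strand: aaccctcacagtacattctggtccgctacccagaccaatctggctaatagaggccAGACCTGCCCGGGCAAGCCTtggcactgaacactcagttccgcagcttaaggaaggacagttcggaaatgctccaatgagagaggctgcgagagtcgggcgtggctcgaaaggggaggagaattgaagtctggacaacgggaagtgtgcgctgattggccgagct
Mdm2, chr10:117710789-117711008, minus strand: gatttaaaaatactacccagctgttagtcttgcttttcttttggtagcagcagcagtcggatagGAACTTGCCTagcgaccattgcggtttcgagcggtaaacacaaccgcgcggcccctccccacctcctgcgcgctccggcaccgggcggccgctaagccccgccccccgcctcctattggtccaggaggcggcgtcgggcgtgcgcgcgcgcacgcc
The Cdkn1a pair began 51 bases before the more upstream of 2 annotated starts, which lie 2790 bases apart, and the window of the downstream start held no half-site. The Ccng1 pair began 195 bases and the Mdm2 half-site 186 bases before the start. The p53 sites long known in Mdm2 lie in its first intron, outside such a window. No half-site was found in the windows of Bbc3, Sesn2 and Phlda3, which says only that these letters are not in those stretches. Among 40 other p53 targets, 33 had windows, and 8 of their 50 windows held a half-site. An adjacent pair was present in Zfp365 (2 mismatches) and Rps27l (1 mismatch). Zfp365 rose at D6 against D4 (log2 fold change 2.80), and the difference for Rps27l was 0.41, which was not called. No binding was measured in these libraries.

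Values are FPKM, fragment counts divided by transcript length and by library size. The files hold no counts. Many D2 values carry more decimal places than those of the other groups. Trp53, for instance, is listed at 35.77827533 and 42.72748367 at D2, and at 30.737051 and 43.472042 at D4. The D2 values may have been averaged or mixed before deposit, which was not tested. If so, the D2 libraries are not separate measurements, and SDs and p-values that use them do not measure a spread between libraries. Steps in the values of single-exon genes gave an estimated depth of 16.4 to 24.6 M read pairs in 17 libraries and no estimate for D2 replicate 2, so that 1 read pair was worth 0.00627 to 0.0390 FPKM across the 10 genes. The 24.6 M and the 0.00627 rest on D2 replicate 1, where the steps were least clear. The highest estimate in the other libraries was 20.9 M. The libraries of D0 and D2 differed most within a group, with a median absolute log2 difference over all genes tested of 0.280 and 0.243, against 0.0897 to 0.184 in the other groups. Transcripts of the mitochondrial genome took 0.437 and 1.89% of the FPKM sum at D0, 34.1 and 15.9% at D2, 6.42 and 12.4% at D4, 44.2 and 35.4% at D6, and 27.0 to 62.3% in the later groups. The summed level of 10 fibroblast markers was 764 and 1210 at D0. It was higher at D4 (2017 and 2585) and D6 (2855 and 2801), so it does not set D0 apart from the reprogramming cultures. The sum of 10 pluripotency markers was 4989 and 5289 in riPSC and 4281 and 4759 in mESC, above all other groups, as the labels say. At D0 the sum of 10 myeloid markers was 114 and 126 and that of 9 striated muscle markers 418 and 341, so RNA of genes that mark other cells was present at the start. Here a gene is called, and is said to rise or fall, where limma found a difference of 2-fold or more on the log2(FPKM + 1) scale with adjusted p below 0.05. Log2 fold changes on that scale understate changes of low genes, and each is given with its standard error (SE).

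Mdm2, the ubiquitin ligase that marks p53 for destruction, rose more between D4 and D6 than the other 9 genes. Its level (ENSMUSG00000020184, chr10:117688875-117710758, minus strand, GRCm38) was 8.81 and 15.3 FPKM at D0, 54.6 and 30.1 at D2, 20.1 and 23.8 at D4, 241 and 228 at D6, 74.5 and 80.9 at D8, 57.1 and 51.9 at D10, 35.5 and 33.3 at D12, 37.1 and 36.0 in riPSC and 42.1 and 47.0 in mESC. Both D6 libraries were higher than every other library, and the D0 libraries were the lowest. Between D4 and D6 the mean rose 10.7-fold, from 21.9 ± 2.58 to 235 ± 9.41 (SD, n = 2), with a log2 fold change of 3.36 ± 0.25, limma adjusted p = 6.81e-07. Of the 16439 genes tested, 0.383% had a higher fold change in that step. At D8 Mdm2 fell to 77.7 ± 4.49 (-1.58 ± 0.25, limma adjusted p = 1.66e-04), and it was 19.5 times its D0 level at D6 and 3.04 times in riPSC. The increase by D2 was called (1.72 ± 0.25, limma adjusted p = 1.38e-04), and the D2 libraries were far apart, with replicate 1 at 54.6 and replicate 2 at 30.1. In bulk libraries such as these, fewer cells with a transcript and less of it per cell cannot be told apart.

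**Figure D1:**
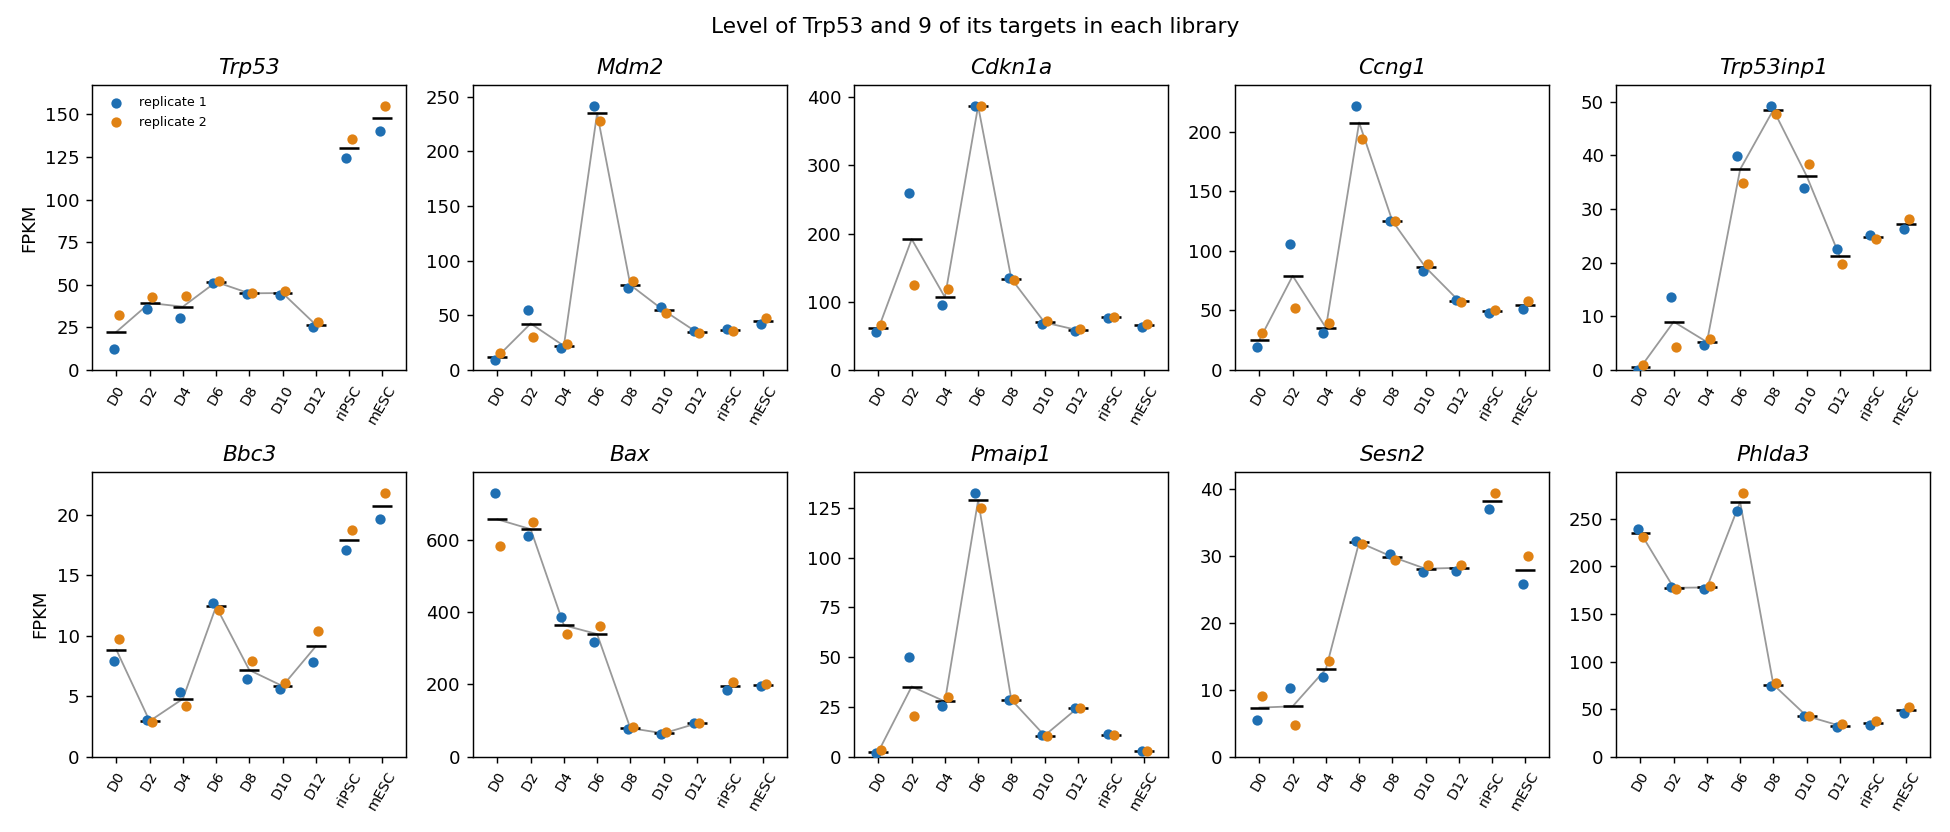
FPKM of each gene (vertical axes, linear from 0) in the 9 groups (horizontal axes), with 1 point per library, a bar at each group mean and a grey line joining the means of D0 to D12. Mdm2, Cdkn1a, Ccng1, Pmaip1 and Phlda3 have their highest mean at D6, Trp53inp1 at D8, Bax at D0, Sesn2 in riPSC, and Trp53 and Bbc3 in mESC.

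Cdkn1a, which encodes the cyclin-dependent kinase inhibitor p21, and Ccng1, which encodes cyclin G1, both rose by D2 and again from D4 to D6. Cdkn1a (ENSMUSG00000023067, chr17:29090976-29100727, plus strand) stood at 55.8 and 65.7 FPKM at D0, 259 and 125 at D2, 94.5 and 119 at D4, 387 and 387 at D6, 136 and 132 at D8, 66.8 and 72.5 at D10, 56.6 and 59.9 at D12, 76.7 and 77.1 in riPSC and 63.5 and 67.6 in mESC. Its riPSC mean was 1.27 times the D0 mean, a difference that was not called (0.34 ± 0.24, limma adjusted p = 0.229). Cdkn1a rose 3.16-fold by D2 (1.55 ± 0.24, limma adjusted p = 2.40e-04) and 3.63-fold from D4 to D6 (1.86 ± 0.24, limma adjusted p = 6.24e-05), and fell at D8 (-1.53 ± 0.24, limma adjusted p = 1.85e-04). The D2 and D8 libraries overlapped, as did D10, mESC, D0 and D12 in their order of means. An antisense gene, AC167363.2, overlaps 273 exonic bases of Cdkn1a and reached at most 3.94 FPKM, and whether counting used strand is not given in the sources used here.

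Ccng1 (ENSMUSG00000020326, chr11:40748552-40755311, minus strand) measured 19.6 and 30.8 FPKM at D0, 106 and 52.0 at D2, 31.3 and 39.6 at D4, 222 and 194 at D6, 125 and 125 at D8, 83.5 and 88.9 at D10, 58.8 and 57.3 at D12, 47.6 and 50.6 in riPSC and 51.2 and 58.0 in mESC. Its D4 libraries were both below its D2 libraries and its D6 libraries were above all others. Ccng1 rose by D2 (1.56 ± 0.27, limma adjusted p = 4.73e-04) and again by D6 (2.53 ± 0.27, limma adjusted p = 1.21e-05, 5.87-fold in the mean). It was the 1 gene of the 10 called between D2 and D4 (log2 fold change -1.06 ± 0.27, limma adjusted p = 0.0107), and without D2 replicate 1 that value was -0.55 and without D4 replicate 1 -0.89, neither of them called. Its D8 libraries were both below its D6 libraries, and the difference was under the 2-fold limit (-0.72 ± 0.27, limma adjusted p = 0.0373).

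Pmaip1, whose product NOXA binds and blocks MCL1, had a log2 fold change of 5.23 at D6 against D0 (50.4-fold in the mean) and was called in 9 of the 10 comparisons. It gave 1.76 and 3.36 FPKM at D0, 50.2 and 20.3 at D2, 25.7 and 29.8 at D4, 133 and 125 at D6, 28.3 and 28.9 at D8, 10.8 and 10.4 at D10, 24.7 and 24.4 at D12, 11.1 and 10.7 in riPSC and 2.96 and 2.79 in mESC. D6 again stood above every other library, and mESC and D0 overlapped at the bottom. Pmaip1 rose 13.8-fold by D2 (3.25 ± 0.31, limma adjusted p = 4.65e-06) and 4.65-fold from D4 to D6 (2.18 ± 0.31, limma adjusted p = 1.02e-04). It then fell at D8 (-2.13 ± 0.31, limma adjusted p = 7.51e-05) and at D10 (-1.35 ± 0.31, limma adjusted p = 0.0135), and rose at D12 (1.14 ± 0.31, limma adjusted p = 0.0119). The D10 and D12 calls were lost when any 1 of the compared libraries was left out, at adjusted p of 0.0729 to 0.0873 and 0.0518 to 0.0629. Pmaip1 was also the 1 gene of the 10 called between the stem cell groups, 3.79 times higher in riPSC than in mESC (1.62 ± 0.31, limma adjusted p = 0.00376).

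Bbc3 and Bax, 2 other genes of the mitochondrial apoptosis route, took different courses from Pmaip1 and from each other. Bbc3, whose product PUMA binds all the protective BCL2 proteins (ENSMUSG00000002083, chr7:16308393-16318205, plus strand), was at 7.92 and 9.73 FPKM at D0, 3.01 and 2.87 at D2, 5.35 and 4.21 at D4, 12.7 and 12.13 at D6, 6.44 and 7.88 at D8, 5.59 and 6.09 at D10, 7.85 and 10.4 at D12, 17.1 and 18.7 in riPSC and 19.7 and 21.8 in mESC. It fell by D2 (-1.31 ± 0.15, limma adjusted p = 2.37e-05), while Pmaip1 rose in the same libraries. The fall of Bbc3 was not called with a pseudocount of 5 (log2 fold change -0.80). Bbc3 rose from D4 to D6 (1.22 ± 0.15, limma adjusted p = 3.80e-05), a call lost with a pseudocount of 5 (log2 fold change 0.83). At D6 it was above its D0 libraries by 0.46 on the log2 scale, under the 2-fold limit, and its highest libraries were those of riPSC and mESC.

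Bax, the pore-forming effector itself (ENSMUSG00000003873, chr7:45461697-45466898, minus strand), was at 730.0 and 583 FPKM at D0, 609.7 and 649 at D2, 387 and 340.5 at D4, 318 and 360.4 at D6, 75.8 and 81.8 at D8, 61.3 and 67.5 at D10, 92.1 and 91.9 at D12, 185 and 206 in riPSC and 196 and 201 in mESC. The D4 and D6 libraries overlapped, and Bax was not called in the step in which Mdm2 rose (log2 fold change -0.10 ± 0.13, limma adjusted p = 0.563). It fell to 78.8 ± 4.23 at D8 (-2.09 ± 0.13, limma adjusted p = 3.54e-08), and D12 was lower than riPSC (-1.08 ± 0.13, limma adjusted p = 8.27e-06). That last value was -0.998 without riPSC replicate 2 and -0.89 with median-of-ratios scaling, neither called. On a per-length scale Bax was the most abundant of the 10 RNAs at D0, D2, D4 and D12 and in riPSC and mESC. A same-strand gene, Gm45808, shares 192 bases with it and reached at most 0.520 FPKM.

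Trp53inp1, whose product promotes p53-dependent death and autophagy, was lowest in the starting fibroblasts and had its highest mean at D8. The gene (ENSMUSG00000028211, chr4:11156431-11174379, plus strand) was listed at 0 and 0.894 FPKM at D0, 13.7 and 4.29 at D2, 4.58 and 5.81 at D4, 39.9 and 34.9 at D6, 49.2 and 47.8 at D8, 33.9 and 38.4 at D10, 22.5 and 19.8 at D12, 25.1 and 24.3 in riPSC and 26.3 and 28.1 in mESC. The D8 libraries were above the D6 libraries, although that step was not called (0.37 ± 0.37, limma adjusted p = 0.429). Trp53inp1 rose by D2 (2.68 ± 0.37, limma adjusted p = 1.01e-04) and from D4 to D6 (2.64 ± 0.37, limma adjusted p = 1.11e-04). Its fold against D0 depends on the pseudocount because of the library at 0: the D6 value was 4.80 with 1, 6.89 with 0.1 and 2.96 with 5. It was called with each of these.

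Sesn2 and Phlda3 feed into growth signalling: sestrin 2 restrains mTORC1 when leucine or energy is short, and PHLDA3 competes with AKT for membrane lipids. Sesn2 (ENSMUSG00000028893, chr4:132492032-132510501, minus strand) measured 5.53 and 9.12 FPKM at D0, 10.3 and 4.72 at D2, 11.9 and 14.3 at D4, 32.3 and 31.8 at D6, 30.3 and 29.4 at D8, 27.6 and 28.6 at D10, 27.8 and 28.7 at D12, 37.0 and 39.5 in riPSC and 25.8 and 30.0 in mESC. It rose from D4 to D6 (1.23 ± 0.26, limma adjusted p = 0.00201) and then stayed between 27.6 and 32.3 FPKM in all 8 libraries of D6 to D12. Its D8 difference from D6 was -0.10 ± 0.26, limma adjusted p = 0.779. The riPSC mean was 5.22 times that of D0 (2.27 ± 0.26, limma adjusted p = 4.71e-06). Sesn2 is also a known target of ATF4, the factor of the amino acid and unfolded protein response.

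Phlda3 (ENSMUSG00000041801, chr1:135766119-135769136, plus strand) was at 239 and 231 FPKM at D0, 178 and 176 at D2, 176 and 179 at D4, 258 and 277 at D6, 74.3 and 77.0 at D8, 42.3 and 43.2 at D10, 30.7 and 34.3 at D12, 32.8 and 37.6 in riPSC and 46.1 and 52.7 in mESC. It was high from the start, highest at D6 and low from D8 on. Its D6 increase passed the test but not the 2-fold limit (0.59 ± 0.10, limma adjusted p = 5.69e-04), and it was above D0 at D6 by 0.19 (adjusted p = 0.130 in limma). Phlda3 fell at D8 (-1.81 ± 0.10, limma adjusted p = 2.17e-08) and was lower in riPSC than at D0 (-2.71 ± 0.10, limma adjusted p = 2.11e-10), whereas Mdm2, Trp53inp1, Pmaip1 and Sesn2 were higher there.

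Trp53 RNA was highest in the stem cells and not at D6. Its level (ENSMUSG00000059552, chr11:69580359-69591873, plus strand) was 12.3 and 32.4 FPKM at D0, 35.8 and 42.7 at D2, 30.7 and 43.5 at D4, 51.2 and 52.0 at D6, 44.6 and 45.3 at D8, 44.2 and 46.0 at D10, 25.0 and 28.0 at D12, 125 and 136 in riPSC and 140.4 and 155 in mESC. The 2 stem cell groups were above all other libraries, and the D0 libraries were far apart. In the step from D4 to D6, in which 7 targets rose, Trp53 was not called (0.49 ± 0.31, limma adjusted p = 0.221). Its call at D6 against D0 (1.32 ± 0.31, limma adjusted p = 0.00200) was lost without D0 replicate 1 (log2 fold change 0.66), with median-of-ratios scaling (0.72), with quantile normalization (0.97) and with a length trend removed (0.72). Trp53 was 5.82 times higher in riPSC than at D0 (2.64 ± 0.31, limma adjusted p = 5.41e-06) and lower at D12 than in riPSC (-2.25 ± 0.31, limma adjusted p = 3.37e-05). A pseudogene, Trp53-ps, was listed at 3.34 FPKM or less, and reads could be split between the copies.

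The comparisons with the most calls among the 10 genes between one sampled day and the next were those at D2, D6 and D8. By D2, 5 of the 10 rose (Mdm2, Cdkn1a, Ccng1, Trp53inp1 and Pmaip1), where 19.5% of all genes tested were called higher, and 1 fell (Bbc3), against 4.63%. With limma fitted to those 4 libraries alone none of the 6 was called, at adjusted p of 0.0725 to 0.171. Because the D2 values may be averaged or mixed, their spread and the D2 calls are uncertain. At D2, replicate 1 was higher than replicate 2 in each of the 5 genes that rose, and its mitochondrial share was 34.1% against 15.9%. From D0 to D2 the myeloid marker sum went from 114 and 126 to 16.8 and 17.6, with 4 of 10 genes at 1 FPKM or more in both D2 libraries and Ptprc at 0 in both. The striated muscle sum went from 418 and 341 to 31.6 and 43.3, with 5 of 9 genes at that level. The extraembryonic endoderm sum went from 4.23 and 6.73 to 122 and 67.6, with 3 of 8 genes at that level and Foxa2 at 0. The fibroblast sum was 1320 and 889.8 at D2, with all 10 genes at that level. The part of these cells in the D2 calls was not tested. At D4 none rose, against 5.66%, and 1 fell, against 4.48%. The count at D4 was 4 without D2 replicate 2 and 0 without D4 replicate 1.

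At D6, 7 of the 10 rose from D4 (Mdm2, Cdkn1a, Ccng1, Trp53inp1, Pmaip1, Bbc3 and Sesn2), against 11.6% of all genes tested, and none fell, against 6.86%. The other 3 were Trp53 (0.49), Phlda3 (0.59) and Bax (-0.10). In all 7 genes that rose, both D6 libraries lay above both D4 libraries. The count was 7 with each library of D4 or D6 left out, with the D0 and D2 libraries left out of the fit and with the 4 libraries fitted alone. The mitochondrial share went from 6.42 and 12.4% to 44.2 and 35.4% in the same step, and the count was also 7 when values were scaled to nuclear genes. Among markers of cell types, the fibroblast sum was 2017 and 2585 at D4 and 2855 and 2801 at D6, with all 10 genes at 1 FPKM or more in both libraries of each group. The pluripotency sum was 4.45 and 6.13 and 32.5 and 29.3, with 2 of 10 genes at 1 FPKM or more in both D6 libraries and Nanog and Utf1 at 0 in both. The myeloid sum was 7.49 and 9.13 and 9.43 and 9.03, with Ptprc, C1qa, C1qb, C1qc, Adgre1 and Tyrobp at 0 in both D6 libraries. Muscle markers summed to 14.2 and 16.1 at D6, with Myog at 0. The part of these other cells in the result was not tested. From D0 to D6, 7 of the 10 rose (Trp53 in place of Bbc3), against 32.8%, and none fell, against 8.79%. Bax was lower at D6 than at D0 by a difference just under the 2-fold limit (-0.94 ± 0.13, limma adjusted p = 2.72e-05). It was called lower with median-of-ratios scaling (-1.57), with a length trend removed (-1.10), without D6 replicate 2 (-1.04) and without D0 replicate 2 (-1.11).

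At D8, 5 of the 10 fell from D6 (Mdm2, Cdkn1a, Pmaip1, Bax and Phlda3), against 11.3% of all genes tested, and none rose, against 15.1%. Trp53, Ccng1, Trp53inp1, Bbc3 and Sesn2 were not called, with log2 fold changes of -0.20, -0.72, 0.37, -0.72 and -0.10. The steps into and out of D6 share the D6 libraries and are not independent. In this step the fibroblast marker sum went from 2855 and 2801 to 474 and 476, with all 10 genes still at 1 FPKM or more. The pluripotency sum went to 411 and 413, with 8 of 10 genes at that level, and the sum of 8 extraembryonic endoderm markers went from 139 and 130.2 to 619 and 589.7. Their part in the fall of the 5 genes was not tested.

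Later steps touched few of the 10. At D10 Pmaip1 alone fell, against 2.43% of all genes, and none rose, against 0.426%, with Phlda3 (-0.81 ± 0.10, limma adjusted p = 2.88e-04) and Cdkn1a (-0.93 ± 0.24, limma adjusted p = 0.0298) under the 2-fold limit. At D12 Pmaip1 alone rose, against 6.01%, and none fell, against 4.68%. The fibroblast marker sum went from 312 and 327 at D10 to 736 and 753 at D12, with all 10 genes at 1 FPKM or more in both groups, and the pluripotency sum from 570.3 and 575 to 1524 and 1558, with 9 of 10 genes at that level in both. Their part in the D12 result was not tested. Scaled to nuclear genes, Pmaip1 was not called at D12 (0.88), and Trp53 (-1.01) and Trp53inp1 (-1.01) were called lower, while the mitochondrial share went from 52.3 and 51.4% at D10 to 62.3 and 62.1% at D12. D12 was higher than riPSC in Pmaip1, against 16.7% of all genes, and lower in Trp53 and Bax, against 19.8%. The difference in Pmaip1 was 1.10 on the log2 scale and 0.74, not called, after scaling to nuclear genes.

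In riPSC 5 of the 10 were higher than at D0 (Trp53, Mdm2, Trp53inp1, Pmaip1 and Sesn2), against 40.1% of all genes tested, and 2 were lower (Bax and Phlda3), against 13%. Both shares are near the background. Over all genes the median log2 difference was 0.62 here and 0.20 with median-of-ratios scaling, and the share of calls that were higher was 75.6% and 58.2%. Against that median of all genes, Mdm2 was 0.95 higher, and its call was lost with that scaling (log2 fold change 0.86), while those of Trp53, Trp53inp1 and Sesn2 were not. The call of Pmaip1 was lost with quantile normalization (1.78 to 0.69). The D0 reference also shifted with scaling in the other comparisons: the median of all genes was 0.50 at D6 and 0.24 at D2, and 0.20 and 0.05 after it. The share of higher calls went from 78.9% to 58.5% at D6 and from 80.8% to 61.3% at D2. Between riPSC and mESC, Pmaip1 was the 1 gene called higher, against 1.84%, and none was lower, against 1.2%. Both lines grew on feeder cells, and the fibroblast marker sum was 88.4 and 94.3 in riPSC and 154 and 167 in mESC.

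In the directions with none of the 10 called, an unadjusted p under 0.05 in limma was reached by 2 genes higher at D4, 3 lower at D12, 1 lower at D6 against D0, 1 lower in riPSC against mESC, and by 0 lower at D6 against D4, 0 higher at D8 and 0 higher at D10.

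**Figure D2:**
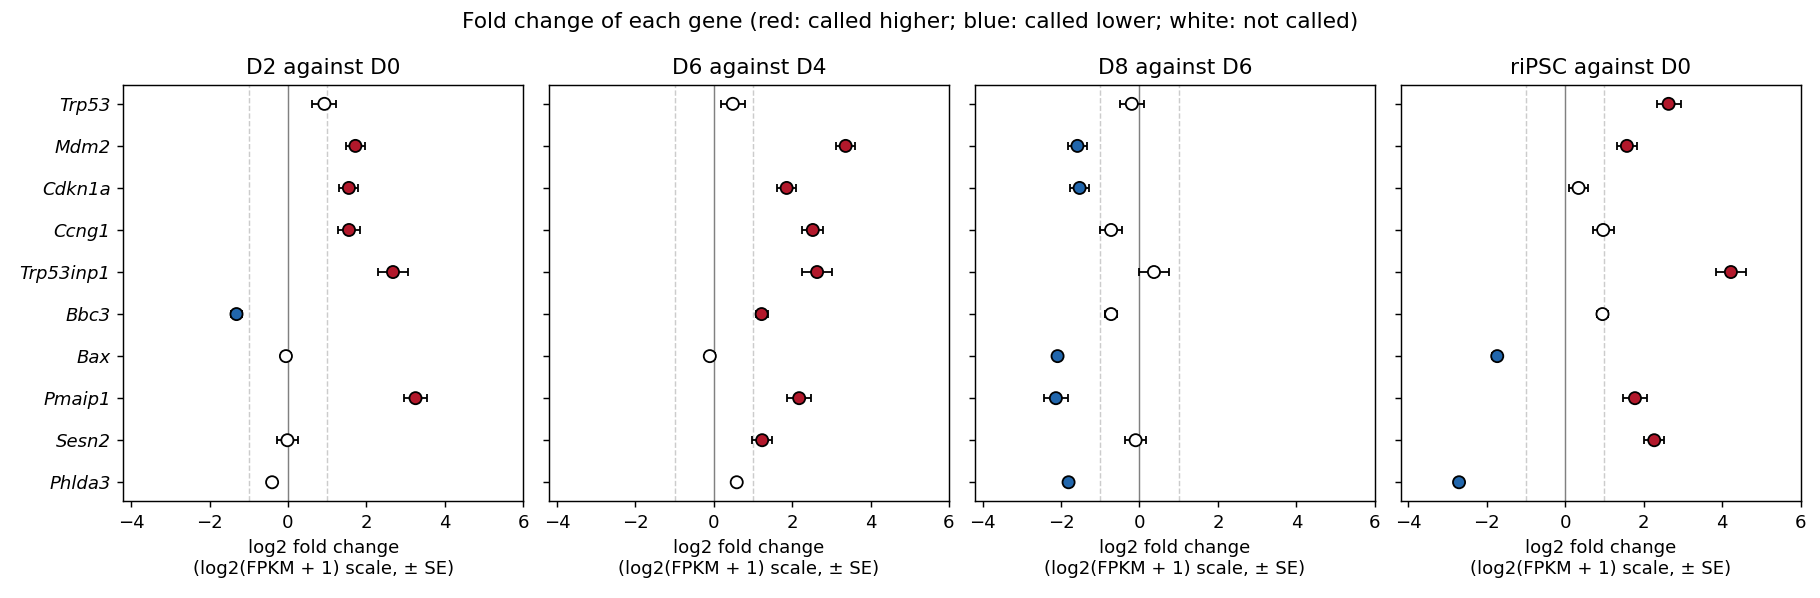
Log2 fold change on the log2(FPKM + 1) scale (horizontal axes) with its standard error (bars) for each gene (vertical axis) in 4 comparisons, with dashed lines at a 2-fold difference. Red points were called higher, blue points lower and white points were not called: 5 red and 1 blue at D2, 7 red from D4 to D6, 5 blue from D6 to D8, and 5 red and 2 blue in riPSC.

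In their order over the 9 groups, 5 of the 10 genes had the highest mean at D6, as did 13.1% of all genes tested, and 6 had the lowest mean at D0, as did 48.4%. Over the 9 group means of log2(FPKM + 1), Mdm2 and Ccng1 had the closest courses, with a Pearson r of 0.97. Mdm2 with Trp53inp1 gave 0.79, Mdm2 with Cdkn1a 0.75, Cdkn1a with Pmaip1 0.83 and Trp53inp1 with Sesn2 0.87. Bax and Phlda3, the pair called lower in riPSC than at D0, gave 0.79 with each other, and Bax gave -0.75 with Sesn2 and -0.74 with Trp53inp1. Trp53 gave -0.01 with Cdkn1a and 0.31 with Mdm2. These are descriptions over 9 points that share libraries and depth, and carry no test.

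**Figure D3:**
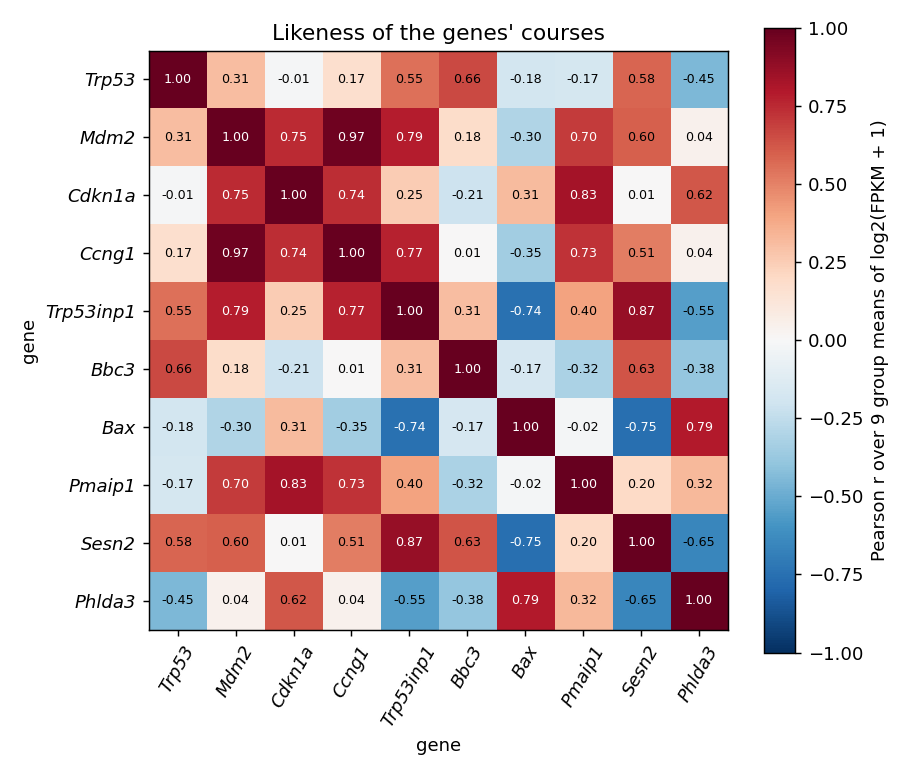
Pearson r over the 9 group means of log2(FPKM + 1) for each pair of the 10 genes (both axes), from -1 (blue) to 1 (red), with the value in each cell. Mdm2 and Ccng1 give 0.97, and Bax with Sesn2 -0.75.

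Among 9275 genes with a group mean of at least 10 FPKM, the 10 genes themselves left out, the 5 whose course over the 9 groups was most like that of Mdm2 were Ptpn12, Zfp365, Cyb561a3, Rsu1 and Cap1 (r of 0.96 to 0.94). Zfp365 is itself on the list of known p53 targets, and its mean was 0.680 at D4, 10.7 at D6 and 2.15 in riPSC. That D6 mean lay just above the 10 FPKM limit of this search, and Mdm2 was highest at D6. A gene that passes the limit by its D6 level tends to resemble Mdm2, so this likeness is no support for a link. For Cdkn1a they were Areg, Gm43154, Rgmb, Slc48a1 and Prl2c3 (r of 0.97 for each). Prl2c3 belongs to a cluster of near-identical copies, so its reads are uncertain. Areg, which encodes the EGF receptor ligand amphiregulin, had a mean of 1.75 at D4 and 33.6 at D6, and was listed at 0 in riPSC. For Trp53 they were Tex9, Odf2, Got1, Ssb and Nfyb (r of 0.99 to 0.98), all of them higher in riPSC than at D6. None of the 5 genes nearest to Trp53 was on a p53 list.

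The wider p53 pathway was read from 4 further lists and the BCL2 family. Of 40 other known p53 targets, 23 rose from D4 to D6, against 11.6% of all genes tested, and none fell, against 6.86%. Their median log2 fold change was 1.36 against 0.07 over all genes tested. Btg2, an antiproliferative gene, went from 7.99 and 10.7 FPKM to 121 and 116 (3.54 ± 0.25, limma adjusted p = 5.37e-07), and Steap3, a metal reductase gene, from 1.11 and 1.63 to 25.3 and 24.6 (3.46 ± 0.20, limma adjusted p = 1.15e-07). Pltp, which encodes a phospholipid transfer protein, went from 5.78 and 6.17 to 70.2 and 73.8 (3.39 ± 0.16, limma adjusted p = 2.66e-08). At D8, 10 of the 40 fell, against 11.3%, and 1 rose, against 15.1%, with a median of -0.53 against 0.08. Fas, the death receptor gene, fell from 23.0 and 25.3 to 2.65 and 2.84 (-2.75 ± 0.16, limma adjusted p = 1.92e-08), and Ak1, an adenylate kinase gene, from 157 and 168 to 22.5 and 24.2 (-2.75 ± 0.21, limma adjusted p = 2.79e-07). The 1 that rose was Sfn, the gene of 14-3-3 sigma (2.19 ± 0.18, limma adjusted p = 6.26e-07). At D12, 1 rose (Sesn1), against 6.01%, and 2 fell (Epha2 and Plk2), against 4.68%, with a median of -0.22 against -0.06. In riPSC 22 were higher and 6 lower than at D0, against 40.1% and 13% of all genes tested, with a median of 1.36 against 0.62. Ddit4, an mTORC1 inhibitor gene, stood at 136 and 142 FPKM in riPSC and 4.29 and 8.203 at D0, and Pml, which organises nuclear bodies, at 35.1 and 35.8 and 2.50 and 3.41. Abhd4 was at 18.6 and 21.2 in riPSC and 1.13 and 2.67 at D0.

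Genes of the cell cycle that p53 is known to lower through p21 went the other way at D6. Of 30 on that list, 22 fell from D4 to D6, against 6.86% of all genes tested, and none rose, against 11.6% (median -1.44 against 0.07). From D6 to D8, 29 rose, against 15.1%, and none fell, against 11.3% (1.90 against 0.08). From D10 to D12, 20 fell, against 4.68% (-1.18 against -0.06). Birc5, the gene of survivin, went from 123 and 111 FPKM at D4 to 19.0 and 19.8 at D6 and 71.2 and 69.1 at D8. Mybl2, a transcription factor gene of dividing cells, went from 2.16 and 2.48 at D6 to 38.3 and 33.0 at D8 (3.46 ± 0.17, limma adjusted p = 5.11e-09). Cenpa, Mcm5 and Aurka fell at D6 (log2 fold changes -2.35, -2.13 and -2.07), and Kif23, Bub1 and Ccnb1 rose at D8 by 2.71, 2.48 and 2.41. From D10 to D12 Cdk1 fell from 20.2 and 22.6 to 6.65 and 5.25 and Prc1 from 33.2 and 34.2 to 10.3 and 10.13, as did Aurka and Bub1 (log2 fold changes -1.54 and -1.66). Cdkn1a was not called from D10 to D12 (-0.25), and its libraries were at 56.6 and 59.9 FPKM. Compared with D0, 24 of the 30 were higher in riPSC, where 40.1% of all genes tested were, and 1, Birc5, was lower, against 13% (1.83 against 0.62). With median-of-ratios scaling, and with a length trend removed, 16 were higher. Chek1, Brca1, Mybl2 and Ccnb1 rose there by 3.96, 3.81, 4.62 and 3.33.

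**Figure D4:**
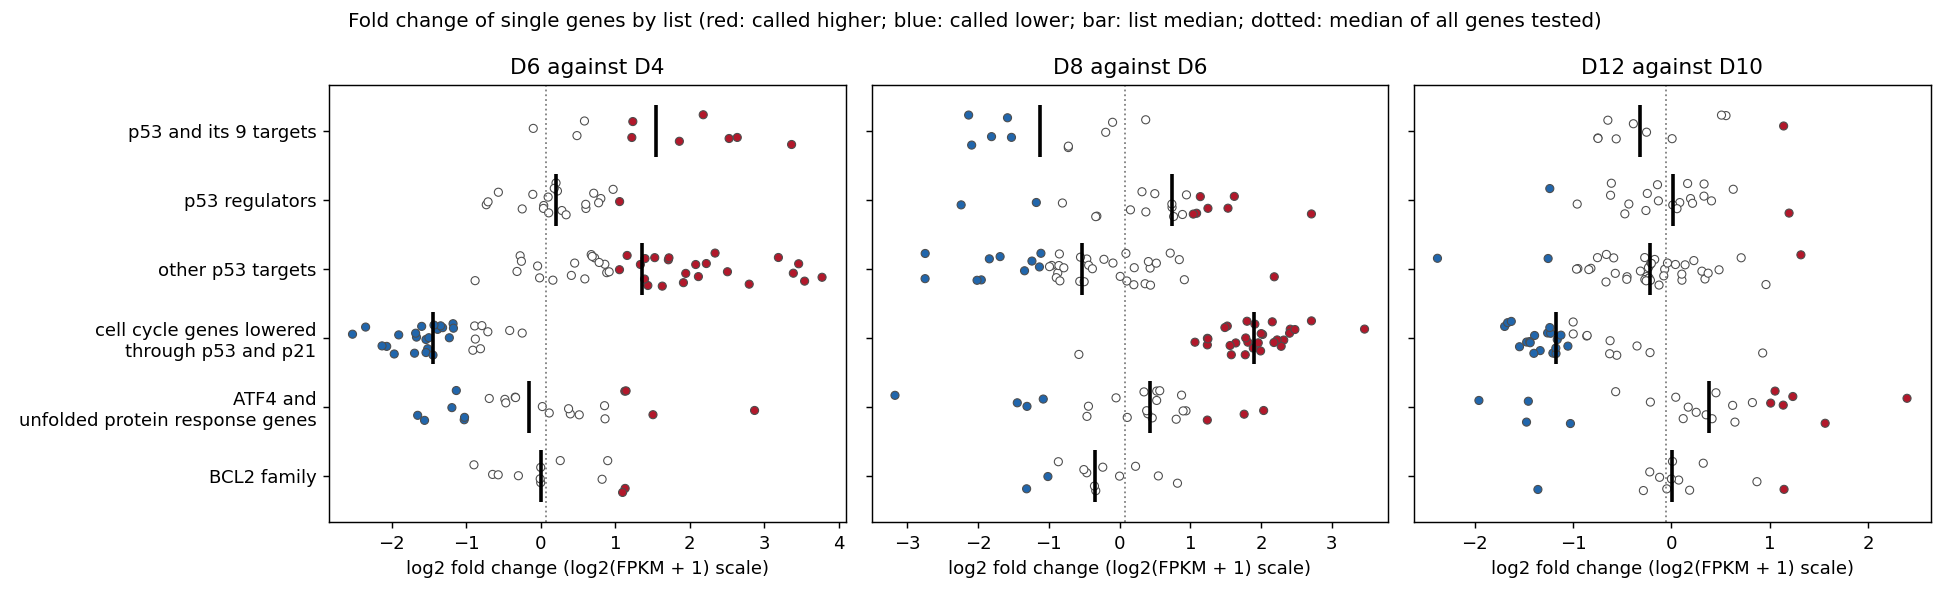
Log2 fold change on the log2(FPKM + 1) scale (horizontal axes) of single genes of the 10 and of 5 further lists (vertical axis) in 3 steps, with 1 point per gene tested, coloured by call, a bar at each list's median and a dotted line at the median of all genes tested. Other p53 targets lie mostly right of the dotted line at D6 (23 red points) and the cell cycle genes left (22 blue points), and 29 cell cycle genes are red at D8.

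Of 23 regulators of p53, 21 were tested. From D4 to D6 none fell, against 6.86% of all genes tested, and 1 rose, against 11.6% (median 0.21 against 0.07). It was Ppp1r13l, the gene of iASPP, an inhibitor of p53, named after its value was seen (log2 fold change 1.06), and it was not called once a length trend was removed. Cdkn2a, whose ARF product inhibits MDM2 and whose other product, INK4A, inhibits CDK4 and CDK6, was at 57.4 and 42.2 FPKM at D0, 92.9 and 86.1 at D4, 148 and 167 at D6, 33.1 and 31.9 at D8 and 20.1 and 22.3 in riPSC. Its D6 libraries were above those of D4 by 0.81 on the log2 scale, under the 2-fold limit, and it fell at D8 (-2.24 ± 0.14, limma adjusted p = 4.36e-08) and rose at D12 (1.20 ± 0.14, limma adjusted p = 3.02e-05). The 2 products share 1 identifier and were not told apart. Mdm4, the relative of Mdm2 that masks the activation domain of p53, was at 2.53 and 2.25 at D0, 7.81 and 8.60 at D4, 18.7 and 15.5 at D6 and 34.0 and 34.2 in riPSC, and was not called from D4 to D6 (0.97 ± 0.21, limma adjusted p = 0.00216). Ppm1d, the phosphatase gene that closes the p53 response and is itself a p53 target, was at 4.77 and 5.68 at D4 and 5.57 and 5.20 at D6 (0.04, not called). At D8, 7 regulators rose, against 15.1%, and 2 fell, against 11.3% (0.74 against 0.08). The increases were led by Hipk2, Sirt1 and Chek2 (log2 fold changes 2.71, 1.62 and 1.53). The other that fell beside Cdkn2a was Rchy1. At D12, 1 rose, against 6.01%, and 1 fell, against 4.68% (0.01 against -0.06). They were Cdkn2a, which rose, and the checkpoint kinase gene Chek1, which fell (-1.24). In riPSC 14 were higher than at D0, against 40.1% of all genes tested, and 2, Cdkn2a and Rpl11, lower, against 13% (1.42 against 0.62). With median-of-ratios scaling 10 were higher and 3 lower, and with a length trend removed 8 and 3. Trp73, a p53 relative, was listed at 0 in all D0, D4 and D6 libraries and at 0.872 and 0.911 in riPSC.

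The ATF4 and unfolded protein response, which shares Sesn2 and Pmaip1 among its known targets, was mixed in the step in which both rose. Of 22 genes 4 rose from D4 to D6, against 11.6% of all genes tested, and 6 fell, against 6.86% (median -0.16 against 0.07). Atf3 was listed at 0 and 0.871 FPKM at D4 and reached 8.86 and 9.11 at D6 (2.87 ± 0.24, limma adjusted p = 1.69e-06), and Vldlr and Cebpb also rose (1.51 and 1.13), as did Eif4ebp1. Phgdh, of serine synthesis, went from 73.7 and 68.8 to 21.9 and 22.1 and Mthfd2, of the mitochondrial folate cycle, from 17.1 and 17.2 to 5.37 and 4.96. At D8, 3 rose, against 15.1%, and 4 fell, against 11.3% (0.43 against 0.08). Asns, Atf3 and Phgdh rose by 2.04, 1.76 and 1.24, Cebpb and Nupr1 fell (-3.17 and -1.44), and so did Eif4ebp1 and Atf5. At D12, 6 rose, against 6.01%, and 4 fell, against 4.68% (0.38 against -0.06). Nupr1 and Trib3 were higher (2.39 and 1.56) and Phgdh and Psat1 lower (-1.96 and -1.45), beside Slc7a11 and Vldlr. In riPSC 9 were higher and 6 lower than at D0 (0.75 against 0.62), and 40.1% and 13% of all genes tested were, with Asns, Chac1 and Stc2 among the higher (3.22, 2.74 and 1.87). With median-of-ratios scaling 5 were higher and 6 lower, and with a length trend removed 4 and 7. Between riPSC and mESC, 5 of the 22 (Nupr1, Chac1, Stc2, Trib3 and Ddit3) were higher, against 1.84% of all genes tested, and none lower, against 1.2% (0.67 against 0.01). Pmaip1 was higher there too. The lines differed in strain label and origin, and a link between these genes and Pmaip1 was not tested.

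Of 15 BCL2 family genes other than those above, 12 were tested. From D4 to D6, 2 rose, against 11.6% of all genes tested, and none fell, against 6.86% (median 0.00 against 0.07). The 2 that rose, a count near that share, were Bcl2l2, a protective member (1.13 ± 0.20, limma adjusted p = 6.74e-04), and Bid, the link from death receptors to Bax (1.10 ± 0.42, limma adjusted p = 0.0492). With median-of-ratios scaling 1 was called. At D8 none rose, against 15.1%, and 2 fell, against 11.3% (-0.35 against 0.08). Bad went from 33.4 and 39.4 FPKM to 14.2 and 13.8 and Bok from 4.29 and 5.46 to 1.78 and 2.02. At D12 Bad rose (1.14), against 6.01%, and Bid fell (-1.36), against 4.68%. In riPSC 6 were higher than at D0, against 40.1% of all genes tested, and 5 lower, against 13% (1.05 against 0.62). With a length trend removed, 3 were higher. Bid and Bmf were among the higher (3.70 and 2.53) and Bok and Bad among the lower (-3.80 and -1.98), beside Bcl2l1, Bcl2 and Bcl2a1b. Mcl1, whose product NOXA blocks, was among the higher. Eif4ebp1, Rchy1, Rpl11, Atf5, Slc7a11, Ddit3, Mcl1, Bcl2l1, Bcl2 and Bcl2a1b were named after their values were seen, to complete these counts. In limma at an unadjusted p under 0.05, the lists with no gene called in a direction at D6 had 3 regulators, 3 other targets, 0 cell cycle genes and 3 BCL2 family genes on that side, and at D8 1 cell cycle gene was lower and 1 BCL2 family gene higher.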

How the data were processed

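Gene expression was measured by RNA sequencing (150 bp reads) in 18 libraries of 9 groups, 2 per group, grouped by their titles. Per the submitters' processing notes, the authors used fastp 0.20.1, HISAT2 2.2.1 and StringTie 2.0 with mm10. The deposited values are FPKM, 1 file per library, a unit read from the values themselves. Many D2 values carry extra decimal places, and whether they were averaged or mixed was not tested. FPKM carry no counts, so count models were not used. Symbols, lengths and positions came from GENCODE annotation of GRCm38, and the annotation release the authors used is not given in the sources used here.

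Values were transformed to log2(FPKM + 1), and the 16439 genes with at least 1 FPKM in at least 2 libraries were tested with limma 3.58.1 (R 4.3.3): group means fitted jointly (9 residual degrees of freedom), eBayes without trend, two-sided, Benjamini-Hochberg adjustment over all genes tested within each of 10 comparisons. All 10 genes of interest passed the filter on low values. Calls required adjusted p below 0.05 together with a difference of 2-fold or more. The genes and lists, and the rule for named list genes (the 4 called genes per list and comparison with the largest change and a mean of at least 5 FPKM, and Cdkn2a, Mdm4, Ppm1d and Trp73), were chosen with earlier results of these data known. One gene that this rule names is not reported here. Lists are given by counts and medians without a set test. Where Ddit3 had 2 identifiers, the one with the higher sum was used. The fit was tested on simulated data. Alternatives covered pseudocounts, filters, scalings, a length trend, variance models, a replicate block and leaving out each library.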

Additional observations from a re-analysis of the deposited data

How the results depend on the processing

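Of 681 alternatives of the 39 called results of single genes, 642 kept the direction and the call, 39 kept the direction and lost the call, and 0 reversed. Of 1079 alternatives of the 61 results not called, 22 became called with the 2-fold limit kept, and 36 changed sign without being called. With only the compared libraries fitted, the number of the 10 genes called was 0 at D2 against D0 (6 in the model over all groups) and 0 at D4 against D2 (1). The D4 count was 0 with a pseudocount of 5, with quantile normalization and with scaling to nuclear genes, 2 with median-of-ratios scaling, and 0 to 4 when 1 library was left out. Without the 2-fold limit it was 6, and the counts were 3 at D10 against D8, 4 at D12 against D10 and 2 in riPSC against mESC, each against 1. At D12 against D10 the count was 0 with a pseudocount of 5 and 2 with scaling to nuclear genes (Trp53 and Trp53inp1, both lower). Leaving out 1 library gave 0 at D10 against D8 and 0 at D12 against D10. A fit to fewer libraries has fewer degrees of freedom. With only the compared libraries fitted, the count was 7 at D6 against D4 and 5 at D8 against D6, as in the model over all groups. The cause of the changed counts was not tested. The D6 count was 7 in each alternative other than a pseudocount of 5 (6) and no 2-fold limit (8), and the D8 count was 5 other than without the limit (7).

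A fit with the replicate number as a block left all 10 counts as they were, with 7 at D6 against D4. Correlations of the replicate differences between compared groups ran from -0.23 to 0.15, and so gave no sign of pairing by number. Weak correlations cannot exclude a shared culture or batch, and the labels do not say whether libraries were paired.

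The fits without the D0, D2 and D4 libraries were chosen after seeing the data. Depth was estimated for 17 libraries, and low values of Trp53inp1 and Pmaip1 at D0 rest on libraries far apart.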
